A study of Bos taurus with 29 samples.

Results

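Among the 7 cattle oocytes that had been cultured with C-type natriuretic peptide (CNP) before maturation, the messenger RNA of the mitochondrial genome spread 3.82-fold from the lowest oocyte to the highest. The oocytes were ranked by the summed level of the 13 mitochondrial mRNAs, and the 3 highest were set against the 3 lowest across 10079 other genes that had at least 1 CPM in 3 or more of the 7. CPM is the read count of a gene divided by the library's total and put on a common scale, with no correction for gene length. The 7 are all CNP_IVM oocytes with values, of 10 labelled. The series held 22 oocytes with values, of 29 labelled. The summed level chose the oocytes, so in these 7 oocytes it and its 13 components are described without a test. No p-value is given anywhere, because the animal and culture of each oocyte are not labelled and each group therefore counts as 1 sample. SDs and ranges are the spread between the measured oocytes, not between animals.

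All oocytes were wild type and came from cumulus-oocyte complexes aspirated from donors given follicle stimulating hormone (FSH). Germinal vesicle (GV) oocytes were stripped of cumulus cells when they were collected. IVM oocytes spent 22 h in a serum-containing medium with epidermal growth factor (EGF) and FSH. CNP_IVM oocytes first spent 6 h with 200 nM CNP in that medium without EGF, and then had the same 22 h. CNP, the absence of EGF and the longer culture cannot be told apart in this design. A polar body marked the matured oocytes as metaphase II. Values were available for 7 GV, 8 IVM and 7 CNP_IVM oocytes. GV replicate 9 is titled GV but labelled as matured in vitro, and was kept with GV by its title.

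Mitochondria carry a small genome of their own, which encodes core subunits of respiratory complexes I, III and IV and of the ATP synthase (complex V). Its genes are transcribed as long precursors that are cut into separate messages and, with the known exception of ND6, given poly(A) tails. Nuclear genes supply all other respiratory subunits and every protein that copies, transcribes and translates the mitochondrial genome. A growing oocyte accumulates mitochondria in large numbers and passes them to the embryo.

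The CNP_IVM libraries held 34835906 to 39089848 reads, and 9429 to 9834 genes reached 1 CPM. The highest 3 had 9429 to 9778 such genes and the lowest 3 had 9475 to 9733, so the sets overlapped in this measure. Spearman's rho between the mitochondrial sum and library total was 0.32 over the 7 oocytes, and it was also 0.32 for genes detected. The oocyte markers were present in all 7. The growth factor gene GDF9 lay between 315 and 447 CPM. BMP15, a second oocyte growth factor, lay between 907 and 1567 CPM. The egg coat gene ZP3 lay between 130.3 and 239 CPM. The 18 measured cumulus and granulosa markers summed to 263 to 331 CPM in the highest 3 and to 280.3 to 339.9 CPM in the lowest 3. CYP11A1, FST and HSD3B1 were at 0 in each of the highest 3, and no marker was at 0 in each of the lowest 3. Other members of the list were present in all 7. HAS2 lay between 98.3 and 149.6 CPM, PTGS2 between 19.6 and 79.0 CPM and VCAN between 18.3 and 49.0 CPM. The 7 measured blood and immune markers summed to 6.67 to 14.2 CPM in the highest 3 and to 16.8 to 28.1 CPM in the lowest 3, with the macrophage gene CD68 at 0 in all 7. Those sums did not overlap, and their part in the results was not tested. In the GV oocytes the same markers summed to 211 to 382 CPM.

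The summed mitochondrial mRNA was 7908 CPM in CNP_IVM replicate 1, 11526 in replicate 4 and 14897 in replicate 5, which form the lowest 3. It was 16001 CPM in replicate 6, the middle oocyte. It was 17658 CPM in replicate 7, 20408 in replicate 3 and 30207 in replicate 2, which form the highest 3. The sum was thus 0.791% of the library in the lowest oocyte and 3.02% in the highest. A CPM value is a share of the library, so more mitochondrial mRNA and less other mRNA in an oocyte cannot be told apart. Counting error was small against these gaps. The exact 95% Poisson interval was 7879 to 7936 CPM for replicate 1 and 30152 to 30262 CPM for replicate 2. The mean over the 7 was 16944 ± 7124 CPM (SD, n = 7), and the mean of the highest 3 was 1.99 times that of the lowest 3. The ranking has no wide gap at its centre, since replicate 6 lay 1104 CPM above replicate 5 and 1657 CPM below replicate 7.

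The spread within CNP_IVM was set beside that of the other groups. GV oocytes ran from 2277 to 4834 CPM, a ratio of 2.12, with a coefficient of variation of 33.5%. IVM oocytes ran from 2205 to 9414 CPM, a ratio of 4.27, with a coefficient of variation of 55.1%. The coefficient for CNP_IVM was 42.0%. The IVM ratio rests on IVM replicate 3 and was 2.02 without it. The CNP_IVM ratio was 2.62 without replicate 1 and 2.58 without replicate 2. IVM replicate 3, at 9414 CPM, also lay above the lowest CNP_IVM oocyte, so the matured groups overlapped in the sum.

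**Figure D1:**
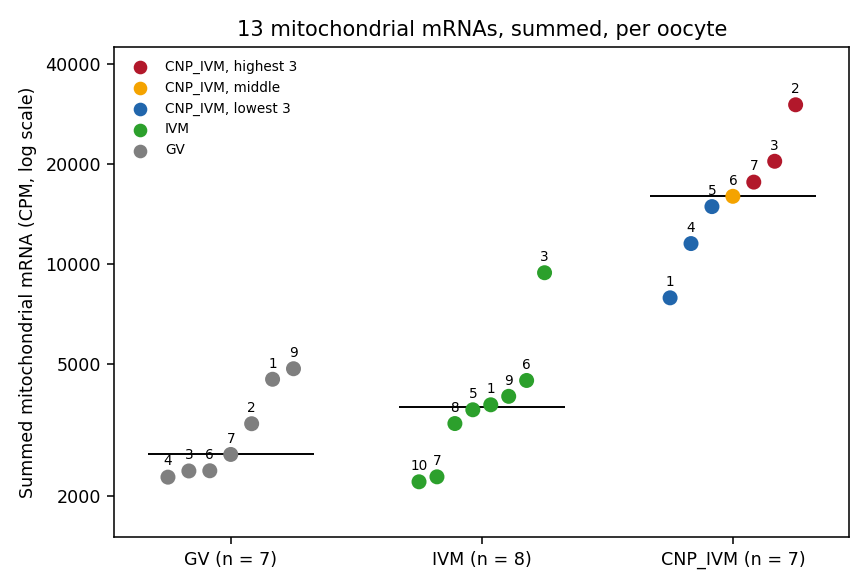
Summed CPM of the 13 mitochondrial mRNAs (log scale) in each oocyte of the 3 groups. Each point is 1 oocyte with its replicate number, horizontal lines are group medians, and colours mark the highest 3, middle and lowest 3 CNP_IVM oocytes. CNP_IVM spans 7908 to 30207 CPM without a wide gap, and IVM replicate 3 stands above the other IVM oocytes at 9414 CPM.

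The individual genes did not rise and fall by a common factor. All 13 were highest in replicate 2, and 9 of 13 were lowest in replicate 1. In 9 of 13 the highest 3 oocytes all lay above the lowest 3, as a ranking by their sum would favour, and the exceptions were ND1, ND3, ND6 and COX1. The ratio of the mean of the highest 3 to the mean of the lowest 3 ran from 1.23 for ND1 to 2.55 for ND3. Over the 78 pairs of the 13 genes, the median Spearman's rho across the 7 oocytes was 0.89, with a range from -0.14 to 1. These points share libraries scaled to a common total.

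Complex I is the entry point of electrons from NADH, and 7 of the 13 messages encode parts of it. ND3, a membrane subunit, was 125, 89.3 and 228 CPM in replicates 1, 4 and 5, 158 CPM in replicate 6, and 171, 310.4 and 647 CPM in replicates 7, 3 and 2. The ND3 range was 7.24-fold, and replicate 5 of the lowest 3 exceeded replicate 7 of the highest 3. ND1, which lies at the junction of the membrane and peripheral arms of the complex, was 1365, 1208 and 1177 CPM in the lowest 3, 913 CPM in replicate 6, and 872, 1694 and 2038 CPM in the highest 3. The ND1 range was only 2.34-fold, and replicates 6 and 7 held the least of it. Its rho with the sum of the other 12 genes was 0.29, against 0.79 to 1 for the others. ND2 was 332, 330.04 and 386 CPM in the lowest 3 and 450 (449.8), 573 and 652 CPM in the highest 3, with no overlap. ND4 was 576, 818 and 909 CPM in the lowest 3 and 1069, 1463 and 2105 CPM in the highest 3, again with no overlap. ND5 ran from 259 to 964 CPM over the 7 oocytes. ND4L ran from 29.2 to 93.3 CPM. ND4L shares a transcript with ND4 and overlaps it, so the split of reads between them is uncertain. ND6, the message read from the opposite strand, ran from 108 to 449 CPM, and replicate 7 at 142 CPM lay below replicate 5 at 171 CPM. The library method primes on poly(A), so the level of ND6 is uncertain.

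Complex IV, cytochrome c oxidase, passes electrons to oxygen. COX1, its catalytic subunit, was 1072, 2681 and 3402 CPM in the lowest 3, 3826 CPM in replicate 6, and 4253, 2982 and 5767 CPM in the highest 3. Replicate 3, second in the ranking by sum, thus held less COX1 than replicate 5 of the lowest 3. COX3 was 1332, 2241 and 3282 CPM in the lowest 3 and 4170.4, 4522 and 7771 CPM in the highest 3. COX3 followed the order of the sum of the other 12 exactly. COX2, which carries the copper site that accepts electrons from cytochrome c, ran from 358 to 1212 CPM. CYTB, the only complex III subunit of this genome, was 1319, 1985 and 2736 CPM in the lowest 3 and 3533, 4116 and 4434 CPM in the highest 3.

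In complex V, ATP6 forms part of the proton channel. ATP6 was 1014, 982 and 1333 CPM in the lowest 3, 1628 CPM in replicate 6, and 1609, 2614 and 3999 CPM in the highest 3, without overlap. ATP8 overlaps ATP6 on a shared message, so its reads may be divided unevenly. It ran from 19.05 to 75.7 CPM.

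**Figure D2:**
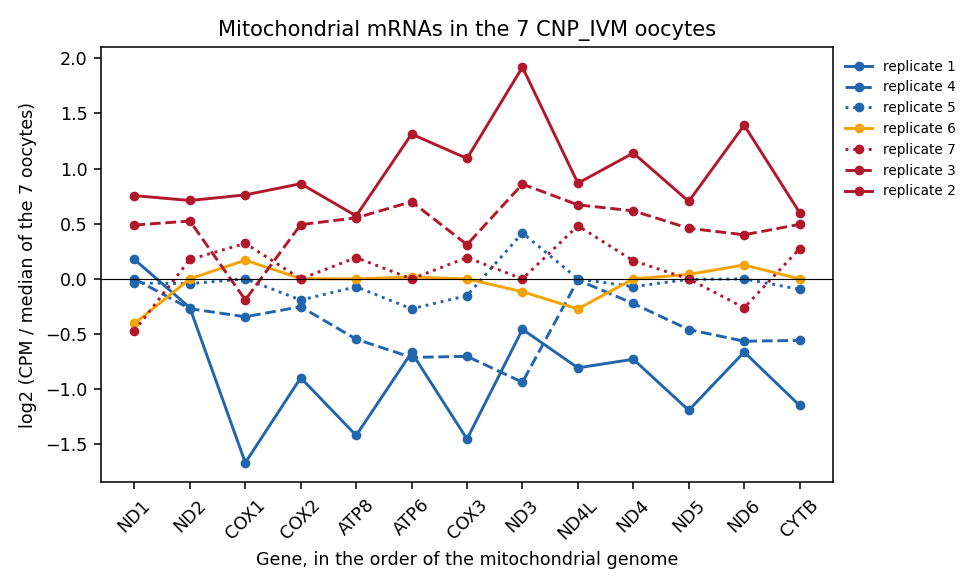
log2 ratio of each mitochondrial mRNA to its own median over the 7 CNP_IVM oocytes, with 1 line per oocyte and genes placed in genome order. Replicate 2 is the top line at every gene, while replicate 1 is lowest at 9 of 13 and lies above the median at ND1 (1365 CPM).

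The make-up of the sum therefore differed between oocytes. ND1 was 17.3% of the sum in replicate 1, 10.5% in replicate 4 and 7.90% in replicate 5. Its share was 5.70% in replicate 6 and 4.94, 8.30 and 6.75% in replicates 7, 3 and 2. COX1 was 13.6% of the sum in replicate 1 and 14.6% in replicate 3, with 19.1 to 24.1% in the other CNP_IVM oocytes. A high ND1 share beside a low COX1 share was also seen outside CNP_IVM, in GV replicate 3, with 15.2% ND1 and 13.2% COX1. ATP6 was 12.8% of the sum in replicates 1 and 3 and 13.2% in replicate 2, against 8.52 to 10.2% in the other 4.

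All 13 mRNAs were at least 2-fold higher in CNP_IVM than in IVM by group means. So were 2.2% of the 10092 genes with at least 1 CPM in 3 or more CNP_IVM oocytes, the 13 included. Genes that reached that level only in IVM are not among the 10092. For 6 of 13, namely ND1, ND2, ND3, ND4, ND6 and ATP6, even the lowest CNP_IVM oocyte lay above every IVM oocyte. The same held for 1.63% of the 10092 genes. ND1 was at least 872 CPM in CNP_IVM and at most 516 CPM in IVM. For COX1 the groups overlapped, since CNP_IVM replicate 1 had 1072 CPM and IVM replicate 3 had 2010 (2009.6) CPM. IVM replicate 3 was the highest IVM oocyte for all 13.

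Across the other 10079 genes, the median log2 difference between the highest 3 and the lowest 3 was -0.01. This difference is the log2 of the 2 means, each with 1 CPM added, which understates differences of low genes. The central 90% of genes lay between -0.81 and 0.78. At least 2-fold higher were 248 genes (2.46% of those tested), and 298 (2.96%) were at least 2-fold lower. In 581 genes (5.76%) all 3 oocytes with high sums lay above all 3 with low sums, and in 629 (6.24%) all 3 lay below. Meeting both conditions were 161 higher genes (1.6%) and 155 lower genes (1.54%), 316 in all. These counts rest on which oocytes are compared. Without replicate 1, 4 or 5 in turn, replicate 6 joins the lowest 3, and 152, 157 and 160 genes met both conditions, of which 79, 88 and 79 were among the 316. Without replicate 2, 3 or 7, replicate 6 joins the highest 3, and 341, 312 and 347 genes did, of which 205, 211 and 206 were among the 316.

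The genes that maintain and express the mitochondrial genome showed no shift of this size. In this and the following lists, counts past 2-fold stand against 2.46% of all genes higher and 2.96% lower. Of 10 genes for mitochondrial RNA synthesis, none was 2-fold higher and 1 was 2-fold lower, with a median log2 difference of -0.16. The member that was lower, MRPL12, a ribosomal protein that also binds the mitochondrial RNA polymerase, had only 0.857 CPM on average. TFAM, which packages mitochondrial DNA and starts its transcription, was 5.05, 2.72 and 3.62 CPM in the lowest 3 and 2.91, 4.71 and 1.65 CPM in the highest 3. The TFAM values overlapped. POLRMT, the mitochondrial RNA polymerase, lay between 0 and 3.56 CPM, too low to compare.

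Of 21 genes that process or stabilise mitochondrial RNA, none was 2-fold apart (median -0.10). LRPPRC, which binds mitochondrial mRNAs and keeps them stable, was 45.7, 54.5 and 28.2 CPM in the lowest 3 and 65.7, 61.7 and 51.7 CPM in the highest 3. Replicate 4 overlapped the highest 3. Its partner SLIRP ran from 13.8 to 34.0 CPM and overlapped. The mitochondrial poly(A) polymerase MTPAP ran from 24.5 to 48.5 CPM and overlapped. PNPT1 and SUPV3L1 form the complex that degrades mitochondrial RNA. PNPT1 was 42.1, 39.1 and 50.3 CPM in the lowest 3 and 41.1, 31.9 and 24.97 CPM in the highest 3, a log2 difference of -0.41 with overlap. SUPV3L1 was 143 to 198 CPM over the 7 oocytes, with a log2 difference of -0.10. FASTKD2, an RNA-binding protein of mitochondrial RNA granules, was 66.1, 116 and 106 CPM in the lowest 3 and 63.3, 50.1 and 63.2 CPM in the highest 3, without overlap (log2 difference -0.70).

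Among 17 genes that maintain mitochondrial DNA, the median was -0.09, with none 2-fold higher and 1 lower. That gene was the nuclease EXOG, at 31.6 CPM in replicate 5 and 2.54 to 4.99 CPM in the other 6 oocytes. MGME1, another nuclease of mitochondrial DNA, was 15.01, 22.9 and 27.9 CPM in the lowest 3 and 11.4, 12.7 and 10.5 CPM in the highest 3. POLG, the mitochondrial DNA polymerase, was listed at 0 in all 7. TWNK, the helicase, ran from 0.392 to 6.74 CPM.

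Of 15 mitochondrial translation factors none was 2-fold apart (median 0.14). The median of 11 mitochondrial tRNA synthetases was 0.34. Of 75 mitochondrial ribosomal protein genes, none was 2-fold higher and 1, again MRPL12, was lower (median -0.03). In 6 of the 75 (8%) the highest 3 lay above the lowest 3, against 5.76% of all genes, and in 9 (12%) they lay below, against 6.24%. MRPL42 was 250.0, 246 and 279.9 CPM in the lowest 3 and 160 (159.6), 162 and 162 CPM in the highest 3. MRPL48 ran the other way, with 14.8, 12.7 and 19.5 CPM in the lowest 3 and 24.2, 25.6 and 42.1 CPM in the highest 3.

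The nuclear respiratory genes also stayed near the genome-wide median. None of 82 was 2-fold apart, and their median was -0.13. In 7 (8.54%) the highest 3 lay above the lowest 3, and in 5 (6.1%) they lay below, against 5.76% and 6.24% of all genes. The medians were -0.13 for 38 complex I genes, 0.00 for 4 complex II genes and -0.09 for 10 complex III genes. They were -0.19 for 13 complex IV genes and -0.05 for 18 complex V genes. Subunits of the same complex went in opposite directions. COX5A was 90.3, 79.5 and 117 CPM in the lowest 3 and 118, 137 and 177 CPM in the highest 3. COX5B was 59.2, 48.3 and 54.7 CPM in the lowest 3 and 33.2, 40.9 and 33.9 CPM in the highest 3. Neither gene overlapped between the sets. In complex I, NDUFB6 ran from 462 to 508 CPM in the lowest 3 and from 598 to 713 CPM in the highest 3, while NDUFC1 ran from 93.1 to 163 CPM and from 49.2 to 86.0 CPM.

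Of 41 respiratory assembly factors none was 2-fold higher and 3 were lower (median -0.03), against 2.46% and 2.96% of all genes. SCO1, which delivers copper to cytochrome c oxidase, was 6.31, 7.70 and 5.43 CPM in the lowest 3 and 2.02, 1.97 and 2.88 CPM in the highest 3. The other two, SDHAF3 and SDHAF4, which help assemble complex II, rest on replicate 5. SDHAF3 was 209.7 CPM there and 28.1 to 51.0 CPM elsewhere. SDHAF4 was 18.1 CPM there and 2.24 to 5.68 CPM elsewhere.

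Of 12 regulators of mitochondrial biogenesis 1 was 2-fold higher and none lower (median 0.17). The higher gene, the coactivator PPRC1, had 4.10 CPM on average and overlapped between the sets. PPARGC1A, the best known coactivator of this group, was 40.0, 57.0 and 87.8 CPM in the lowest 3, 109.8 CPM in replicate 6, and 139, 112 and 72.8 CPM in the highest 3. The values overlapped, since the oocyte with the highest mitochondrial sum had less PPARGC1A than replicate 5. SIRT3, the main mitochondrial deacetylase, was 87.8, 144 and 107 CPM in the lowest 3 and 65.1, 68.5 and 45.5 CPM in the highest 3. NRF1 ran from 9.57 to 21.4 CPM with overlap.

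None of 25 genes of mitochondrial dynamics and mitophagy was 2-fold apart (median 0.09). The mitophagy receptor gene BNIP3 was 20.6, 23.0 and 32.8 CPM in the lowest 3 and 46.1, 37.6 and 46.3 CPM in the highest 3. Its values did not overlap between the sets. Of 31 import genes none was 2-fold apart (median 0.09). Of 11 mitochondrial proteostasis genes none was higher and 1 was lower (median -0.06), HTRA2, with 1.46 CPM on average and overlap between the sets.

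**Figure D3:**
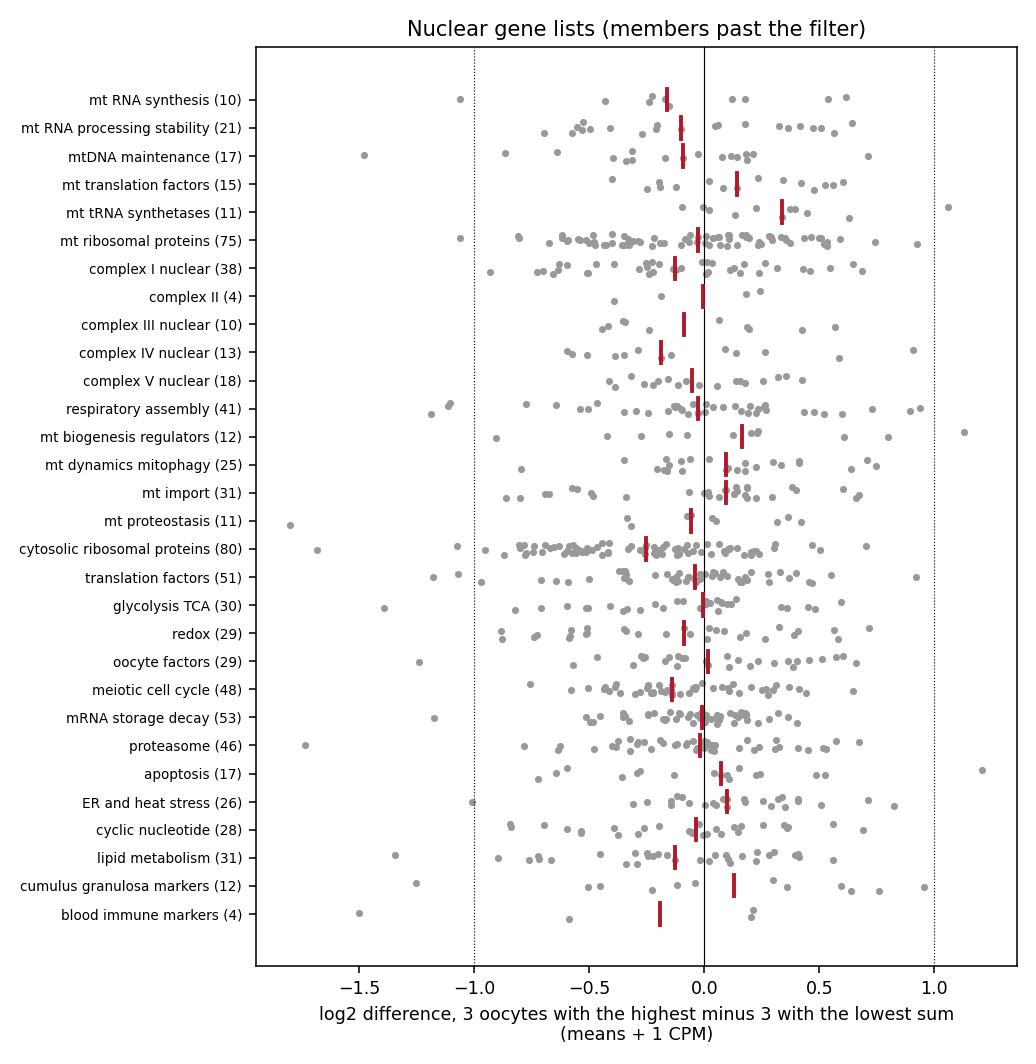
log2 difference between the 3 CNP_IVM oocytes with the highest and the 3 with the lowest mitochondrial sums, for the members of each nuclear gene list that passed the 1 CPM filter (numbers in brackets). Grey points are genes, red bars are list medians and dotted lines mark 2-fold. All medians lie between -0.26 and 0.34.

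Cytosolic ribosomal proteins were the list with the largest excess of genes in 1 direction. Of 80, 2 were 2-fold lower (RPL36A and RPL38) and none higher, with a median of -0.26. In 17 (21.3%) the highest 3 lay below the lowest 3, against 6.24% of all genes, and in 3 (3.75%) they lay above, against 5.76%. RPSA, the ribosomal protein also known as the laminin receptor, was 1085, 741 and 879 CPM in the lowest 3, 621 CPM in replicate 6, and 609, 659.8 and 624.6 CPM in the highest 3. RPL30 was 120.3, 75.7 and 101 CPM in the lowest 3 and 44.3, 61.1 and 46.6 CPM in the highest 3. RPS14 ran the other way, with 137, 118 and 167 CPM in the lowest 3 and 179, 189 and 217 CPM in the highest 3. The summed list was 11008 CPM in replicate 1, 7873 in replicate 4 and 8559 in replicate 5, against 6734 to 8699 CPM in the highest 3. Replicate 1 stood apart. Without it, replicate 6 (7399 CPM) joined the lowest 3 and the median was -0.06. The loss of replicate 1 and the entry of replicate 6 cannot be told apart there. Ribosomal protein genes have many near-identical copies in mammalian genomes, so reads could be split between them. Of 51 translation factors none was higher and 2, the elongation factor subunit genes EEF1B2 and EEF1D, were lower (median -0.04). EEF1D had only 2.74 CPM on average.

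Other lists lay near the genome-wide median. The shares past 2-fold over all genes were again 2.46% higher and 2.96% lower. Of 30 genes of glycolysis and the citric acid cycle none was higher and 1, the hexokinase gene HK2, was lower (median -0.01). HK2 had 2.19 CPM on average and overlapped between the sets, with 0 CPM in replicate 5. Of 29 redox genes none was 2-fold apart (median -0.09). Of 31 lipid genes none was higher and 1, the fatty acid desaturase gene FADS1, was lower (median -0.13). Of 29 oocyte factors none was higher and 1 was lower (median 0.02), the germ cell RNA-binding protein gene DAZL. DAZL was 242, 139.9 and 33.1 CPM in the lowest 3 and 58.0, 75.3 and 40.6 CPM in the highest 3, with overlap. Of 48 meiotic cell cycle genes none was 2-fold apart (median -0.14). CCNB1, which encodes cyclin B1, lay between 1959 and 2453 CPM in the 7 oocytes. MOS, the kinase that holds metaphase II arrest, was 1627 CPM in replicate 1 and 523 to 937 CPM in the other 6.

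Of 53 mRNA storage and decay genes none was higher and 1, PATL2, was lower (median -0.01). PATL2 had 2.86 CPM on average and overlapped between the sets. BTG4, the adaptor for maternal mRNA decay, was 35400.3, 40963 and 31071 CPM in the lowest 3 and 33007, 31399 and 25421 CPM in the highest 3. Of 46 proteasome genes none was higher and 1, PSMA1, was lower (median -0.02). Of 17 apoptosis genes 1, BAD, was higher and none lower (median 0.07). Of 26 genes of endoplasmic reticulum and heat stress none was higher and 1, the stress sensor gene ERN1, was lower (median 0.10). ERN1 had 1.17 CPM on average and overlapped between the sets. The chaperone gene DNAJA1 was 861, 928 and 1023 CPM in the lowest 3 and 1348, 1310.2 and 1342 CPM in the highest 3. Of 28 cyclic nucleotide genes none was 2-fold apart (median -0.04). PDE3A, the oocyte phosphodiesterase for cyclic AMP, ran from 14.1 to 30.9 CPM. NPR2, the CNP receptor, did not exceed 1.63 CPM in any of the 7. Of 12 cumulus and granulosa markers past the filter none was 2-fold higher and 1, TNFAIP6, was 2-fold lower (median 0.13). TNFAIP6 had only 1.45 CPM on average. In 2 of the 12 (16.7%) the highest 3 lay above the lowest 3, against 5.76% of all genes. In 1 (8.33%), TNFAIP6, they lay below, against 6.24%. The median of this list was -0.03 after scaling to nuclear reads and -0.06 with TMM factors. EGFR, a growth factor receptor gene, was 5.65, 3.16 and 1.41 CPM in the lowest 3 and 7.68, 5.99 and 8.93 CPM in the highest 3. KRT8, a keratin gene, did not exceed 2.96 CPM in any of the 7. Of 4 blood and immune markers 1 was lower and none higher (median -0.19). That gene, VWF, a product of endothelium, was 20.2, 25.5 and 10.8 CPM in the lowest 3 and 9.27, 5.19 and 3.53 CPM in the highest 3. VWF was higher in the GV oocytes, at 160 to 336 CPM, and lay between 1.92 and 42.1 CPM in the IVM oocytes.

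Single genes were also taken by size, whether or not a list held them. Among genes with a symbol, at least 10 CPM on average and no overlap between the sets, the 12 largest in each direction were taken. Those contrasts were chosen by size and are described only. SCN8A, which encodes a voltage-gated sodium channel, had the largest negative difference. It was 189, 210.2 and 132 CPM in the lowest 3, 7.72 CPM in replicate 6, and 25.4, 16.4 and 8.48 CPM in the highest 3. SLC28A1, a nucleoside transporter gene, was 132, 141 and 155 CPM in the lowest 3, 30.2 CPM in replicate 6, and 17.03, 32.4 and 43.8 CPM in the highest 3. SLC18A2, the vesicular monoamine transporter gene, was 298, 253 and 279 CPM in the lowest 3, 69.6 CPM in replicate 6, and 99.9, 73.5 and 79.3 CPM in the highest 3. In all 3 genes replicate 6 lay far from the lowest 3.

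The small membrane protein gene SMIM11 was 465, 306 and 192 CPM in the lowest 3 and 64.9, 147 and 81.1 CPM in the highest 3. COMMD6 was 115, 109 and 81.8 CPM in the lowest 3 and 23.5, 38.9 and 36.3 CPM in the highest 3. PLA2G12B, a secreted phospholipase family member, was 80.4, 93.9 and 48.0 CPM in the lowest 3 and 27.3, 31.8 and 14.97 CPM in the highest 3. LRRC8B encodes a subunit of the volume-regulated anion channel. It was 61.6, 78.3 and 62.4 CPM in the lowest 3 and 29.2, 21.3 and 18.3 CPM in the highest 3. PIGK, part of the enzyme that attaches lipid anchors to proteins, was 19.98 to 21.8 CPM in the lowest 3 and 3.67 to 7.75 CPM in the highest 3. C4H7orf31 was 16.6 to 17.3 CPM in the lowest 3 and 2.99 to 6.16 CPM in the highest 3. The ribosomal protein gene RPL36A was 18.7 to 40.6 CPM in the lowest 3 and 4.76 to 10.8 CPM in the highest 3. MAGI1, a scaffold of cell junctions, was 38.6, 39.0 and 83.0 CPM in the lowest 3 and 20.6, 17.6 and 5.89 CPM in the highest 3. COPRS, a partner of the arginine methyltransferase PRMT5, rests on 1 oocyte, with 276 CPM in replicate 5 and 11.7 to 23.3 CPM in the other 6.

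Of the genes that were higher, SPP1, which encodes osteopontin, was 4.73, 8.63 and 12.9 CPM in the lowest 3, 73.7 CPM in replicate 6, and 116, 181 and 29.6 CPM in the highest 3. RUNDC1 was 4.52, 4.03 and 5.91 CPM in the lowest 3, 45.4 CPM in replicate 6, and 26.2, 51.2 and 57.2 CPM in the highest 3. MRNIP, which encodes a partner of the MRN DNA repair complex, was 19.6, 21.2 and 12.6 CPM in the lowest 3, 128 CPM in replicate 6, and 83.7, 74.7 and 115 CPM in the highest 3. In both RUNDC1 and MRNIP the middle oocyte stood with the highest 3. TXNIP, an inhibitor of thioredoxin and of glucose uptake, was 12.5, 21.3 and 10.9 CPM in the lowest 3, 81.9 CPM in replicate 6, and 85.0, 51.2 and 56.1 CPM in the highest 3. GADD45B, a stress-induced gene, was 2.85 to 4.05 CPM in the lowest 3 and 16.1 to 46.5 CPM in the highest 3.

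EFHD1 and ATPSCKMT encode mitochondrial proteins, a calcium-binding protein and a methyltransferase that acts on an ATP synthase subunit. EFHD1 was 4.46, 31.3 and 27.4 CPM in the lowest 3, 101 CPM in replicate 6, and 49.5, 78.1 and 75.6 CPM in the highest 3. ATPSCKMT was 10.8, 5.599 and 5.598 CPM in the lowest 3 and 17.5, 21.9 and 34.2 CPM in the highest 3. The kinase gene CAMK1 was 2.24 to 10.1 CPM in the lowest 3 and 13.99 to 26.8 CPM in the highest 3. KCTD1, a transcriptional repressor gene, was 2.11 to 17.6 CPM in the lowest 3 and 23.1 to 38.3 CPM in the highest 3. The protease gene TMPRSS7 was 0.476 to 12.8 CPM in the lowest 3 and 20.48 to 22.1 CPM in the highest 3. ITGBL1 was 1.24 to 10.97 CPM in the lowest 3 and 12.97 to 37.1 CPM in the highest 3. MGC137055 was 20.496 to 83.0 CPM in the lowest 3 and 128 to 245 CPM in the highest 3. The gap between the sets was smaller than the spread within the lowest 3 in 6 of the 12 higher genes, namely EFHD1, CAMK1, KCTD1, TMPRSS7, ITGBL1 and MGC137055. The same was true of 5 of the 12 lower genes, namely SMIM11, PLA2G12B, RPL36A, MAGI1 and COPRS. These counts leave out the spread within the highest 3. That spread also exceeded the gap in SPP1, RUNDC1, GADD45B, TXNIP and ATPSCKMT. In SPP1 the highest 3 ran from 29.6 to 181 CPM, and the gap was 16.6 CPM. Neither spread exceeded the gap in MRNIP or in the remaining lower genes.

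Replicate 6 was in neither set, so its values did not enter the contrast, although they counted in the filter on low values and in the means over the 7 oocytes. For each gene its place was put on a log2 scale from 0 at the mean of the lowest 3 to 1 at the mean of the highest 3. By mitochondrial sum it lay at 0.53, and in 6 of the 13 mitochondrial mRNAs it lay nearer the highest 3. Of the 316 other genes it lay nearer the highest 3 in 236 (74.7%), in 129 of the 161 higher genes and 107 of the 155 lower genes. Among the 100 with at least 10 CPM on average it lay nearer the highest 3 in 90. With the filter and the mean taken over the other 6 oocytes alone, a setting chosen after seeing the data, these counts were 223 of 298 and 91 of 101. Of the 24 genes named for size it did so in 22, the exceptions being ITGBL1 and PIGK. In the 316, replicate 6 lay within the range of the highest 3 in 152 genes and beyond that range in 40. It lay between the sets in 64, within the range of the lowest 3 in 56 and beyond that range in 4. Over the 1210 genes without overlap, of any size, it lay nearer the highest 3 in 72.3%. The share over all 10079 genes was not taken. Spearman's rho over 10079 genes was 0.951 to 0.959 between replicate 6 and each of the highest 3, and 0.935 to 0.943 between replicate 6 and each of the lowest 3. Within the highest 3 it was 0.931 to 0.954, within the lowest 3 it was 0.928 to 0.941, and between the sets it was 0.915 to 0.946. In most of the 316 genes replicate 6 thus lay nearer the mean of replicates 2, 3 and 7. Its mitochondrial sum was closer to that of replicate 5 than to that of replicate 7.

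The IVM oocytes had no part in the ranking and offer a second look at the same genes. IVM replicate 3, the IVM oocyte with the highest mitochondrial sum, was the highest IVM oocyte for 73 of the 161 higher genes (45.3%). It was the highest for 7.91% of all genes. It was the lowest IVM oocyte for 61 of the 155 lower genes (39.4%) and for 7.57% of all genes. The other 7 IVM oocytes were each the highest in 2.48 to 14.9% of the higher genes and the lowest in 1.29 to 12.9% of the lower genes. Over all genes their shares were 6.25 to 26.9% and 1.69 to 24.7%. On the scale from the lowest 3 to the highest 3, IVM replicate 3 lay nearer the highest 3 in 216 of the 316 genes (68.4%), and the other IVM oocytes did so in 30.4 to 39.2%. The share over all genes was not taken on this scale.

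**Figure D4:**
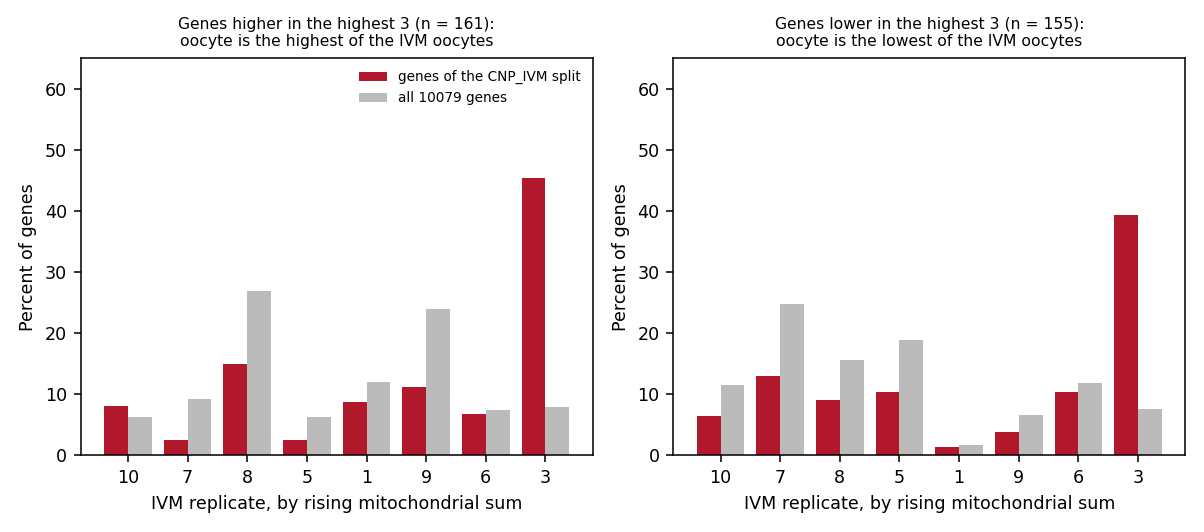
Percent of genes for which each IVM oocyte is the highest of the 8 (left, 161 genes higher in the CNP_IVM oocytes with high sums) or the lowest of the 8 (right, 155 genes lower in them), beside the same percent over all genes. IVM oocytes are placed by rising mitochondrial sum, and replicate 3 reaches 45.3% and 39.4% where all genes give 7.91% and 7.57%.

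Single genes illustrate this. SCN8A was 11.8 CPM in IVM replicate 3 and 162 to 387 CPM in the other 7 IVM oocytes. SLC28A1 was 32.5 CPM in IVM replicate 3 and 70.4 to 271 CPM in the others. SLC18A2 was 82.4 CPM there and 123 to 374 CPM in the others. For these genes IVM replicate 3 fell within the range of the highest 3 CNP_IVM oocytes. RUNDC1 was 32.1 CPM in IVM replicate 3 and 3.08 to 14.1 CPM in the others. MRNIP was 135 CPM there and 10.3 to 59.8 CPM in the others. TXNIP was 119 CPM there and 17.3 to 48.6 CPM in the others. IVM replicate 3 was the lowest IVM oocyte for all 12 of the named lower genes and the highest for 9 of the 12 named higher genes, GADD45B, TMPRSS7 and CAMK1 being the exceptions.

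IVM replicate 3 was also looked at in 5 genes that differ between the culture systems or mark oocytes, chosen after their values were seen. STAR, a cholesterol transporter gene, was 316 CPM in it, 175 to 452 CPM in the other IVM oocytes and 78.6 to 117 CPM in CNP_IVM. OOSP2, an oocyte-secreted protein gene, was 2774 CPM in it, 1820 (1819.9) to 4749 CPM in the other IVM oocytes and 6072 to 11555 CPM in CNP_IVM. For both genes it lay inside the IVM range and outside that of CNP_IVM. GDF9 was 511 CPM in IVM replicate 3, at the lower edge of the other IVM oocytes (512 to 937 CPM) and above CNP_IVM (315 to 447 CPM). BTG4 was 21010 (21009.8) CPM in it, within the other IVM oocytes (11543 to 28829 CPM) and below CNP_IVM (25421 to 40963 CPM), although those ranges overlap. HAS2, a hyaluronan synthase gene, was 94.8 CPM in IVM replicate 3, above the other IVM oocytes (61.1 to 86.5 CPM) and just below CNP_IVM (98.3 to 149.6 CPM).

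**Figure D5:**
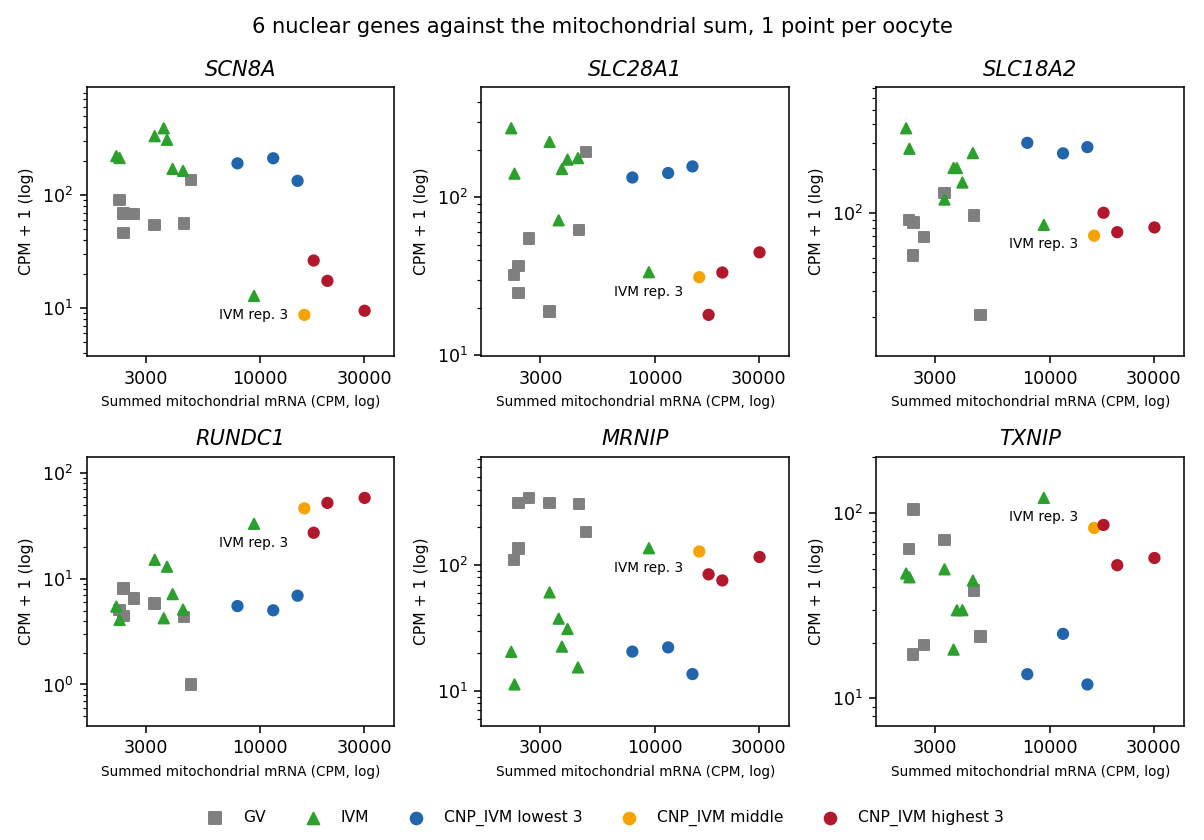
CPM plus 1 of 6 nuclear genes against the mitochondrial sum (both axes log), with 1 point per oocyte. Squares are GV, triangles IVM and circles CNP_IVM, coloured by set. IVM replicate 3 and the middle CNP_IVM oocyte lie with the highest 3 in SCN8A (11.8 and 7.72 CPM) and apart from the other IVM oocytes (162 to 387 CPM).

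The relation did not extend through the rest of the IVM group. Of the 161 higher genes, 77.0% had a positive Spearman's rho with the mitochondrial sum over the 8 IVM oocytes, against 61.2% of all genes. Without IVM replicate 3 the share was 54.0%, against 61.4% of all genes. Of the 155 lower genes, 65.8% had a negative rho, against 36.0% of all genes. Without IVM replicate 3 it was 34.2%, against 34.7%. The likeness in IVM therefore rests on that 1 oocyte. In the 7 GV oocytes 39.1% of the higher genes had a positive rho, against 43.0% of all genes. There, 58.1% of the lower genes had a negative rho, against 53.7%. GV replicate 9, the highest GV oocyte by sum, was the highest for 27.95% of the higher genes and 33.6% of all genes. It was the lowest for 47.1% of the lower genes and 45.6% of all genes. The labels name no animal for any oocyte, so whether the oocytes with like values shared a donor was not tested.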

How the data were processed

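Single-oocyte cDNA was made by the poly(A)-primed SMART-Seq v4 kit and turned into Nextera XT libraries, per the labels' protocols. HISAT2 2.2.1, Trim Galore 0.6.7, featureCounts 2.0.1, edgeR and FastQC are listed in the submitters' processing notes without roles. These notes also list the mouse build GRCm39, although 13356 of 13502 gene names are current cattle symbols in RefSeq (41 older, 105 unmatched). The deposited table is named for TPM, but its values are CPM: each is a whole multiple of 1 read's worth (100% within 0.01 read). Recovered totals were 20159662 to 39340040 reads over all libraries. No coordinates or gene lengths were used, so levels are compared only within a gene. Of 29 labelled samples, 7 were not analysed here.

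Columns were matched to samples by their labels and grouped by title. No 2 CNP_IVM libraries were copies of each other (smallest chi-square per degree of freedom 94.5, genes under 20 reads in a pair left out). The oocytes, gene lists and measures were chosen with earlier results of these data known. Named genes were the 13 mitochondrial mRNAs, the 12 largest positive and 12 largest negative log2 differences among symbol-bearing genes that averaged 10 CPM or more and did not overlap, up to 4 members of each list with a mean of at least 5 CPM and the largest differences, and a fixed set of mitochondrial and oocyte genes. List members shown for lying apart between the sets, the place of the middle oocyte and the IVM extremes were picked after their values were seen. Recovered reads gave Poisson intervals, which cover counting error only, and TMM factors (edgeR 4.0.16). No count test was run, because each group is 1 sample and the sets were formed by a measured value. Some list members are not reported here. Steps were tested on simulated data with Poisson counting error only. Variation between oocytes was not simulated, so that test does not bear on how often real oocytes differ 2-fold without cause. Python 3.11.15, pandas 2.3.3, scipy 1.17.1 and R 4.3.3 were used.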

Additional observations from a re-analysis of the deposited data

Results flagged for a closer look

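In GV and IVM, 52 sets of values (the 13 mitochondrial mRNAs, their sum and, in IVM, the 24 genes named for size) were searched for an oocyte far from its nearest neighbour by Dixon's 95% limit. It was passed 15 times. CNP_IVM was left out, since its own values ranked the oocytes and chose the genes. Chance alone passes about 1 set in 20 if the values are normally distributed, which was not checked for these CPM values. Sets that share an oocyte are also not independent.

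IVM replicate 3 stood above the other IVM oocytes in 14 of the 15. Its mitochondrial sum was 9414 CPM, and the next was 4456 CPM. It had 562 CPM of ND4, 37.2 of ND4L, 2010 (2009.6) of COX1 and 371 of COX2. It also had 2266 CPM of COX3, 2085 of CYTB, 830.3 of ATP6 and 26.3 of ATP8. Among nuclear genes it had 32.1 CPM of RUNDC1, 135 of MRNIP and 119 of TXNIP. It had 152 CPM of MGC137055 and 156 of EFHD1, where the next IVM oocyte had 46.4.

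In GV, replicate 9 had 442 CPM of COX2, and the next had 204 CPM. Its treatment label differs from its title.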

How the results depend on the processing

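The same 3 and 3 oocytes were compared after scaling to nuclear reads, with TMM factors and with a sum without ND6, ND4L and ATP8. With a pseudocount of 0.1 CPM, 500 genes were 2-fold higher and 541 lower. With 5 CPM these were 47 and 76, of which 41 and 44 did not overlap, and 92.9% had the middle oocyte nearer the highest 3. With at least 10 CPM in 3 oocytes they were 72 and 88, of which 52 and 58 did not overlap, and that share was 90%. With the filter and a mean of at least 10 CPM taken over the 6 compared oocytes it was 90.1%. The highest 2 against the lowest 2 gave a ratio of sums of 2.60, 541 genes higher, and 489 higher and 315 lower without overlap. Leaving out each CNP_IVM oocyte in turn, the ratio of sums ranged from 1.57 to 1.99 and the higher genes from 93 to 274. Those without overlap ranged from 57 to 198 higher and from 92 to 162 lower. The ratio of the highest to the lowest oocyte ranged from 2.58 to 3.82 in CNP_IVM, and from 2.02 (without replicate 3) to 4.27 in IVM. Log2 differences reversed with the highest 2 against the lowest 2 in SDHAF4 (0.016) and SDHAF3 (0.54). Leaving out 1 oocyte, EXOG ranged from -1.59 to 0.027 and SDHAF3 from -1.22 to 0.15, and both were positive only without replicate 5, which alone held high values. In GV without replicate 9, 46.6% of the higher genes had a positive rho, and 39.1% did with it. The share of all genes was 43.0% with replicate 9 and was not taken without it. Filters and pseudocounts change which low genes enter by construction, and for the other changes the cause was not tested. No paired analysis was possible because the results come from no test and the replicate numbers name no shared animal or culture. Depth does not limit the mitochondrial sums, but genes of a few CPM are less certain.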
